A study of Mus musculus with 17 samples.

Results

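Microglia of mice with experimental autoimmune encephalomyelitis (EAE) that carry no CD11c at the cell surface were compared with microglia of healthy adult mice. In EAE, T cells that recognize myelin enter the central nervous system and set up an inflammation there, for which it serves as a model of multiple sclerosis. The comparison takes 6 of 17 RNA sequencing libraries: 3 labelled as EAE mouse CD11C negative (libraries 4, 5 and 6, by the numbers in their titles) and 3 of unmanipulated mice (libraries 21, 22 and 23). The titles of the latter call them total microglia, while a second label calls them CD11C negative, and they are named adult microglia here. By the labels all mice were C57BL/6. EAE was induced in young adult females by immunization with a myelin peptide (MOG p35-55) in adjuvant with Mycobacterium tuberculosis, together with pertussis toxin, and cells were taken from mice with symptoms, whereas the adult mice had received none of these agents, so that disease, adjuvant and toxin cannot be told apart. Each library was a pool of mice. Cells from perfused brains were sorted as CD11b+ and CD45dim, and in EAE also by CD11c, the integrin subunit encoded by Itgax. The CD11c+ microglia of the same EAE experiment (libraries 1, 2 and 3) serve below as a second reference that does not reuse the adult libraries.

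Microglia are the resident macrophages of the brain. In the healthy brain they carry receptors for nucleotides, fractalkine and TGF-beta that serve to survey the tissue, a state often called homeostatic. Interferons released by T cells and other cells act through STAT transcription factors on macrophages, which then make antigen-presenting molecules, immune GTPases and chemokines that attract further leukocytes. Neutrophils are short-lived granulocytes whose granules are filled with enzymes and antimicrobial proteins, and their transcripts can be found in a microglial sort when such cells or their RNA are carried along.

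Counted reads were 7500815 to 9246061 in the adult and 7620111 to 10436066 in the EAE CD11c- libraries. Of 41388 gene IDs in the files, the 12140 that reached a CPM (counts scaled to the library total) of 1 or more in at least 3 of the 6 libraries entered the test. A joint model of all 5 groups was used (edgeR, quasi-likelihood), and p-values were adjusted over all of these genes. A gene is said to rise or fall when its adjusted p does not exceed 0.01, and is called higher or lower when the log2 fold change also reaches 1 in size. Levels are CPM after TMM scaling, given in the order of libraries 21, 22 and 23 for adult, 4, 5 and 6 for EAE CD11c- and 1, 2 and 3 for EAE CD11c+ microglia. A count of 3, taken as the floor, corresponds to 0.315 to 0.388 CPM in the adult and 0.284 to 0.384 CPM in the EAE CD11c- libraries, and no fold is given where the mean of a group lies under it. CPM values are not scaled to gene length, so levels are compared between libraries and not between genes. The study names several immunizations for the EAE pools and several cell sorts for the neonatal and adult pools. The labels tie no library to one of them, and p-values measure the spread between these libraries. Whether EAE and adult cells were sorted together is not given, so sort and handling cannot be told apart from disease.

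The identity of the cells was checked on 13 microglial genes named by the study. All 13 were expressed in each library. Of these, 1 rose, 5 fell and 7 did not pass the test. The transcription factor gene Spi1 had 328, 318 and 298 CPM in the adult and 300.2, 282 and 315 CPM in the EAE CD11c- libraries, and Csf1r, the receptor that keeps microglia alive, had 12750, 12795 and 11177 CPM in the adult and 10768, 9937 and 10216 CPM in the EAE CD11c- libraries; neither passed the test (adjusted p = 0.74 and 0.19). Itgam, which encodes CD11b, rose from 2401, 2340.1 and 2206 to 3656, 4046 and 3599.9 CPM. Itgax, the transcript of the protein used for sorting, had 30.2, 31.5 and 30.6 CPM in the adult and 79.8, 77 and 56.2 CPM in the EAE CD11c- libraries (log2 fold change 1.21, SE 0.18, adjusted p = 6.0e-05) and stood at 445, 321 and 385 CPM in EAE CD11c+ microglia. The cells sorted as CD11c- thus held more Itgax transcript than the adult cells in each library, and less than every CD11c+ library.

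In all, 1013 genes (8.34% of those tested) were called higher and 284 (2.34%) lower in EAE CD11c- than in adult microglia. Without the fold threshold 1438 genes (11.8%) rose and 630 (5.19%) fell. The libraries of both groups did not overlap for 3475 genes in the upward (28.6%) and 3210 in the downward direction (26.4%). The median log2 fold change of all genes tested was -0.0059. Changes were larger upward than downward: the log2 fold change reached 2 in size for 628 of the genes called higher and 70 of those called lower. Among the function lists the medians were highest for mitosis, chemokine and interferon response genes. Among the genes that fell, the 5 largest losses in CPM were those of Cst3, Cx3cr1, P2ry12, Selplg and Tgfbr1, all on the homeostatic list, while Jun, an immediate early gene that did not pass, lost more CPM than any of them.

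**Figure D1:**
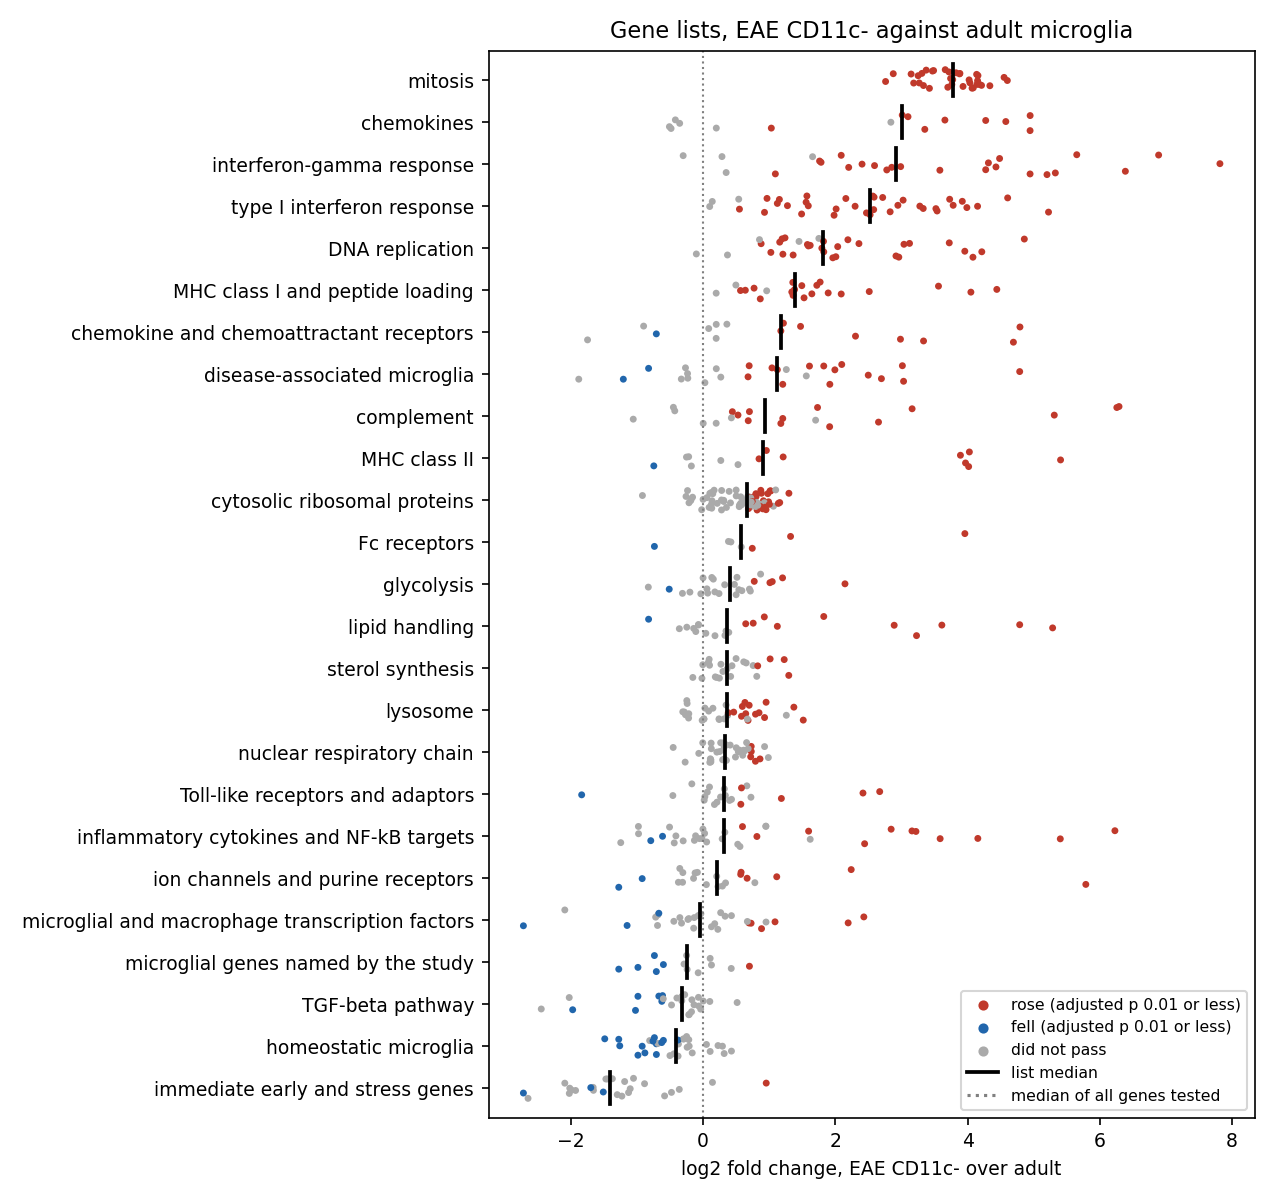
Each point is a gene of a function list or of the microglial genes named by the study (cell type marker lists are not drawn), placed by its log2 fold change in EAE CD11c- over adult microglia (horizontal axis); red points rose, blue points fell and grey points did not pass, the black bar is the list median and the dotted line the median of all genes tested. Of the lists drawn, mitosis lies furthest to the right (median 3.78) and the immediate early and stress genes furthest to the left (median -1.41).

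The 12 genes called higher with the largest fold outside the neutrophil lists included Il12rb1, the shared receptor chain for interleukin-12 and interleukin-23, with 0.121, 0.105 and 0.129 CPM in the adult and 14.9, 28.6 and 15 CPM in the EAE CD11c- libraries. Each adult library held a single read of it. Fn1, which encodes fibronectin, rose from 4.95, 3.57 and 3.88 to 489, 550.4 and 249 CPM (log2 fold change 6.7, SE 0.38, adjusted p = 1.1e-09), with the lowest EAE level in library 6. Cd244a, a receptor of the SLAM family, rose from 1.81, 2.1 and 2.59 to 96, 130.3 and 97.3 CPM (49.6-fold, log2 fold change 5.63, SE 0.25, adjusted p = 6.7e-11). Gm43302, a gene annotated as protein coding on chromosome 5, 105214907 to 105293695 of GRCm38, rose from 0.846, 0.736 and 0.776 to 46, 75.6 and 37.6 CPM. The other members of this set were Iigp1, Gbp4, Gbp2, Gm4841, C4b, Acod1, Asprv1 and Clec4d, most of which are described with their groups. Acod1, the enzyme that makes itaconate, had 0.121, 0.105 and 0.388 CPM in the adult and 9.28, 22 and 16.4 CPM in the EAE CD11c- libraries, and Gm4841 had 0.242, 0.315 and 0.259 CPM in the adult and 15.9, 20.9 and 14.6 CPM in the EAE CD11c- libraries.

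Interferon-γ signals through the receptor chains Ifngr1 and Ifngr2 to a set of GTPases and presentation genes. In EAE CD11c- microglia, 22 of the 26 measured members of this list rose and 0 fell, against 11.8% of all genes, and the list median was 2.92. Gbp2 (ENSMUSG00000028270, chromosome 3, 142620602 to 142638008 on GRCm38), a guanylate-binding protein that acts against intracellular pathogens, had 11.1, 9.67 and 12 CPM in the adult and 435, 752 and 461 CPM in the EAE CD11c- libraries (log2 fold change 5.65, SE 0.29, adjusted p = 4.6e-10). Its relative Gbp4 rose from 2.3, 2.31 and 2.59 to 172, 268 and 164 CPM (83.7-fold, SE of the log2 fold change 0.23, adjusted p = 6.8e-12). Iigp1, an immunity-related GTPase, rose from 1.33, 1.89 and 2.59 to 198, 313 and 178 CPM, and Fgl2, a fibrinogen-like protein, from 16.8, 22.2 and 23.1 to 439.9, 601 and 350.1 CPM. In all of these, even the lowest EAE library lay more than an order of magnitude above the highest adult library. Cd274, the checkpoint ligand PD-L1, rose by a log2 fold change of 2.99 (SE 0.22). The 4 members that did not pass were the receptor chains Ifngr1 (-0.30, adjusted p = 0.075) and Ifngr2 (0.29, adjusted p = 0.054), the kinase Jak2 (0.35, adjusted p = 0.092) and the feedback inhibitor Socs1 (1.66, adjusted p = 0.018). The receptor and kinase values were thus small beside those of the target genes.

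Of the 37 measured genes of the type I interferon response, 34 rose and 0 fell, with a median of 2.53. Zbp1, a sensor of nucleic acids in the Z form, had 4.95, 4.42 and 4.91 CPM in the adult and 162, 230.0 and 142 CPM in the EAE CD11c- libraries (log2 fold change 5.22, SE 0.26, adjusted p = 2.9e-10). The antiviral genes Oas2, an oligoadenylate synthetase, and Mx1, a GTPase, rose from 9.91, 10.6 and 10.3 to 161, 173 and 135 CPM and from 16.3, 22.2 and 19.4 to 134, 149 and 98.1 CPM. Rsad2, which encodes viperin, rose from 4.23, 3.26 and 4.65 to 38.3, 46.7 and 36.6 CPM, and the transcription factors Stat2 and Irf7 rose by log2 fold changes of 2.47 (SE 0.14) and 3.03 (SE 0.23). Both chains of the type I receptor did not pass (Ifnar1 0.14, adjusted p = 0.46; Ifnar2 0.10, adjusted p = 0.54), nor did the RNA sensor Ddx58 (0.54, adjusted p = 0.045). Gbp, Irg, Oas, Ifit and class I genes have close copies, and how reads shared between copies were counted is not given in the sources used here, so the split between copies is uncertain.

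The promoters of 6 genes show which short motifs lie before genes that rose. They were chosen as 1 gene for each of the 6 function lists with the largest share of members that rose, an order of lists set after the data were seen, and within a list as the member with the smallest adjusted p whose 250 bases before the start held a motif. Sequences are from RefSeq on GRCm38.p6, 5′ to 3′ on the strand of the gene, and end at the base before the start. Capitals mark the motifs searched on both strands: the interferon-stimulated response element as GAAANNGAA, the gamma-activated site as TTCNNNGAA, the cell cycle homology region as TTTGAA and the CCAAT box as CCAAT.
Gbp2: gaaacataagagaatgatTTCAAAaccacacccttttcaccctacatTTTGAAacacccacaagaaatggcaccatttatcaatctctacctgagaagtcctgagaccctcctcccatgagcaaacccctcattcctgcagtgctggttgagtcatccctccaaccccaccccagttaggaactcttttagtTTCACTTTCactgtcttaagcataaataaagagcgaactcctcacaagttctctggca
Stat2: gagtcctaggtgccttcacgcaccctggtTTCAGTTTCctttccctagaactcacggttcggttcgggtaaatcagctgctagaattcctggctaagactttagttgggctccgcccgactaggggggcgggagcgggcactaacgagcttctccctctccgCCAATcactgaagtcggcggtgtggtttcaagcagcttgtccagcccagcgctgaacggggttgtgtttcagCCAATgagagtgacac
H2-Q7: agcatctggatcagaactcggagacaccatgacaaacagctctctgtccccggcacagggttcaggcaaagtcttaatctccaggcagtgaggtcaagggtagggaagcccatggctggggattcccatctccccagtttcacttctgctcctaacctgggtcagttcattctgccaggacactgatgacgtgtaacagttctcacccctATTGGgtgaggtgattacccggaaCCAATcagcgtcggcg
C5ar1: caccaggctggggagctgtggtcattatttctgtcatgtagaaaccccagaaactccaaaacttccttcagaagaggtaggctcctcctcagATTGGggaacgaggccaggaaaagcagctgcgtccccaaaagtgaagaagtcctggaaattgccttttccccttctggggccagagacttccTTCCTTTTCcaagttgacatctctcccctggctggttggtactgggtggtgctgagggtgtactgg
Kif2c: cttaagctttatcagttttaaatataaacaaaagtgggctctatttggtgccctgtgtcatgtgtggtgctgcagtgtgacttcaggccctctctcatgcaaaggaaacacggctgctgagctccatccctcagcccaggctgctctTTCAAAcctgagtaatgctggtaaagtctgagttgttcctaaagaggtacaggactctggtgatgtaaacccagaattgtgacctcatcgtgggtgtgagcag
Uhrf1: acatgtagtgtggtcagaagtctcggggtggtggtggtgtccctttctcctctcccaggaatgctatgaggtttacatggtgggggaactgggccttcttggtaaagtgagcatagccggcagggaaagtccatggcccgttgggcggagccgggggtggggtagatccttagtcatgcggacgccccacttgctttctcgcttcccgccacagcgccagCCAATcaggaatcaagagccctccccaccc
The stretches are chr3:142620413-142620662 (plus strand) for Gbp2, chr10:128270248-128270497 (plus) for Stat2, chr17:35438905-35439154 (plus) for H2-Q7, chr7:16259339-16259588 (minus) for C5ar1, chr4:117178773-117179022 (minus) for Kif2c and chr17:56303087-56303336 (plus) for Uhrf1. In Gbp2 the response element TTCACTTTC lies 58 to 50 bases before the start, and in Stat2 TTCAGTTTC lies 221 to 213 bases before it. The RefSeq start of Gbp2 used here lies after the first base of the gene position given above, which is from another annotation. The element of Gbp2 thus falls inside that position. C5ar1 holds TTCCTTTTC 66 to 58 bases before its start. H2-Q7 and Uhrf1 hold CCAAT boxes close to the start, at 16 to 12 bases in H2-Q7 and 30 to 26 bases in Uhrf1, and Kif2c holds TTCAAA at 103 to 98 bases. Uhrf1 has 2 starts in the promoter set, and the first that held a motif is shown. The gamma-activated site and the response element can overlap in a promoter, and each was counted by itself.

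Each start was counted as a promoter, and a gene can have several starts or none in the promoter set. The shares are thus of promoters and not of genes. The response element was found in 10 of 19 promoters (52.6%) of the interferon-γ members that rose and in 11 of 29 (37.9%) of the type I members that rose. Among 11981 promoters of tested genes the share was 6.51%. The gamma-activated site was present in 7 of the 19 (36.8%) against 6.04%. A CCAAT box was present in 25 of 31 promoters (80.6%) of the mitosis genes that rose. It was present in 14 of 19 promoters (73.7%) of the class I and peptide loading genes that rose, against 35.2% of promoters of tested genes. The cell cycle homology region was present in 11 of the 31 mitosis promoters (35.5%) against 10.7%. A match of letters is a description of the sequence and shows no binding.

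**Figure D2:**
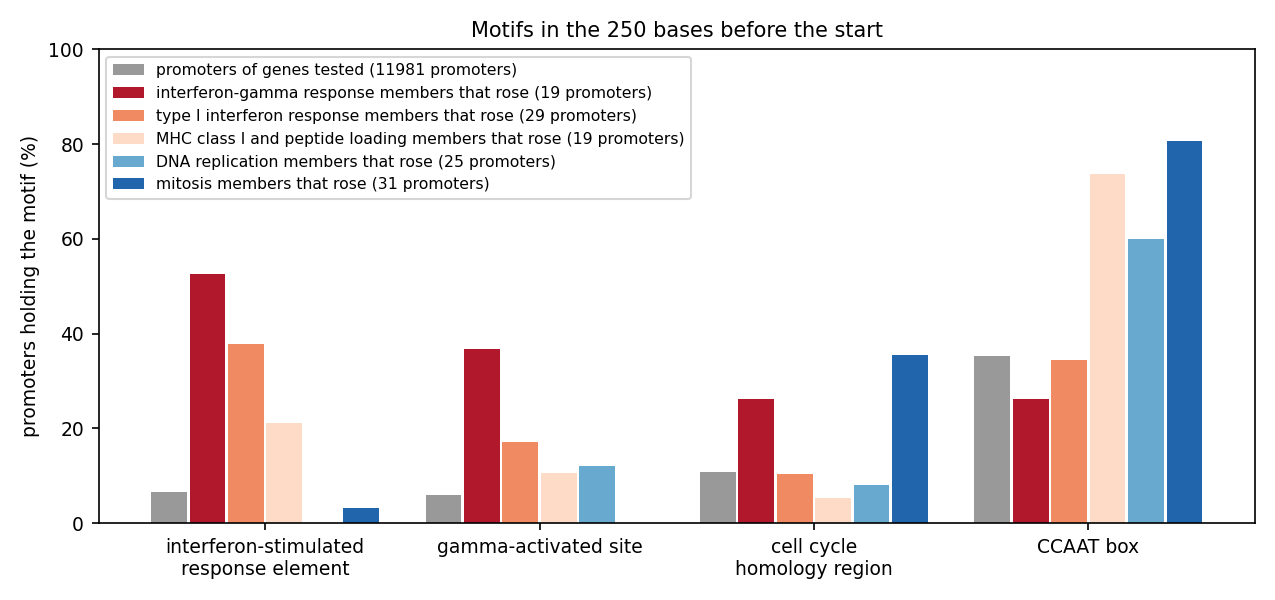
Bars give the percentage of promoters (250 bases before the start) that hold each of 4 motifs, for all tested genes and for the members of 5 lists that rose. The response element is most frequent in the interferon-γ list (52.6%) and the CCAAT box in the mitosis list (80.6%), while the grey bars for tested genes stand at 6.51% and 35.2%.

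Antigen presentation to CD4 T cells uses MHC class II, whose genes are switched on by the coactivator Ciita. Ciita had 0.362, 0.631 and 1.16 CPM in the adult and 27.3, 35.3 and 29.3 CPM in the EAE CD11c- libraries (log2 fold change 5.41, SE 0.33, adjusted p = 2.7e-09). The class II chain gene H2-Ab1 rose from 16.1, 25.5 and 23.1 to 345, 338 and 281 CPM and H2-Eb1 from 10.1, 17.2 and 14.7 to 232, 244 and 209 CPM. Cd74, the invariant chain, rose from 51, 83.2 and 69.8 to 1124, 1155 and 918 CPM (15.7-fold, log2 fold change 3.97, SE 0.26, adjusted p = 5.0e-09). The peptide exchange genes H2-DMa and H2-DMb1 rose by 1.21 and 0.96 on the log2 scale. H2-Ob, a chain of the inhibitor H2-O, fell from 69.3, 63.6 and 58.7 to 38.8, 36.6 and 39.1 CPM. In all, 8 of 14 measured members rose and 1 fell, with a median of 0.90. The general promoter factors Rfx5, Rfxank and Rfxap did not pass, with log2 fold changes of -0.25, -0.22 and -0.18. The increase lay in the chains, in Ciita and in the loading genes.

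For class I presentation, 20 of 23 measured members rose and 0 fell (median 1.38). Nlrc5, the class I counterpart of Ciita, had 20.7, 20.1 and 24.3 CPM in the adult and 377, 403 and 297 CPM in the EAE CD11c- libraries (log2 fold change 4.05, SE 0.15, adjusted p = 6.8e-12), among the smallest adjusted p of the lists. The peptide transporter gene Tap1 rose from 82.5, 95.6 and 90.8 to 485, 604 and 447 CPM, and B2m, the light chain, from 1368, 1387 and 1247 to 3629.9, 3703 and 2954 CPM. The non-classical gene H2-Q7 rose from 5.92, 3.57 and 4.53 to 119, 113 and 71.8 CPM, and immunoproteasome genes Psmb8 and Psmb9 by 1.36 (SE 0.22) and 1.53 (SE 0.23). Calr and Canx, chaperones of the endoplasmic reticulum, did not pass (0.50 and 0.20).

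Of 20 measured complement genes, 13 rose and 0 fell, with a median of 0.94. C4b, which encodes complement component 4, had 12.4, 19.2 and 15.3 CPM in the adult and 1274, 1341 and 989 CPM in the EAE CD11c- libraries (76.5-fold, log2 fold change 6.26, SE 0.33, adjusted p = 6.2e-10). Reads of its copy C4a may be shared with it. The next steps of the cascade were also higher: C2 rose from 0.725, 0.526 and 0.388 to 4.69, 5.4 and 4.99 CPM and C3 from 19.8, 26 and 37.1 to 145, 158 and 219 CPM. Cfb, factor B of the alternative pathway, had 0, 0.21 and 0 CPM in the adult and 5.12, 3.88 and 2.05 CPM in the EAE CD11c- libraries, and Serping1, the inhibitor of C1, had 0, 0 and 0.129 CPM in the adult and 3.63, 6.35 and 2.82 CPM in the EAE CD11c- libraries; the adult levels of both lay under the floor. The genes of the first component gave smaller fold changes, with C1qa at 0.44 and C1qb at 0.53 on the log2 scale, both past the test, and C1qc at 0.43 (adjusted p = 0.1). The complement receptor C5ar1 rose from 59, 72.6 and 67.7 to 129.5, 151 and 171 CPM, whereas C3ar1 did not pass (0.20, adjusted p = 0.36).

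Receptors for antibody and for microbial products were less uniform. Among 7 Fc receptor genes 3 rose and 1 fell (median 0.58); 6 rose with the 6 libraries alone, and 0 fell without EAE library 4 or 5 or adult library 21 or 22. Fcgr4, an activating receptor for immunoglobulin G, had 16.3, 17.1 and 13.4 CPM in the adult and 230.4, 286 and 215 CPM in the EAE CD11c- libraries (log2 fold change 3.96, SE 0.20, adjusted p = 2.9e-10). Fcgr2b, the inhibitory receptor, rose from 277, 276 and 231 to 642, 701 and 622 CPM, and Fcgr1 by 0.74 on the log2 scale. Fcrls, an Fc receptor-like gene of microglia, fell from 2778, 2564 and 2304 to 1492, 1305 and 1796 CPM. Of 21 Toll-like receptors and adaptors, 5 rose and 1 fell (median 0.32), and 3 rose without adult library 21. Tlr5, the flagellin receptor, fell from 44.2, 39 and 48.1 to 12.3, 9.57 and 15.1 CPM (log2 fold change -1.83, SE 0.24, adjusted p = 1.3e-05), while Tlr2 rose from 202, 215 and 213 to 319, 345 and 272 CPM and Ly86, a partner of Cd180, from 703, 709.7 and 565 to 1483, 1589 and 1424 CPM. Tlr4, the endotoxin receptor, had a log2 fold change of 0.27 (adjusted p = 0.3).

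**Figure D3:**
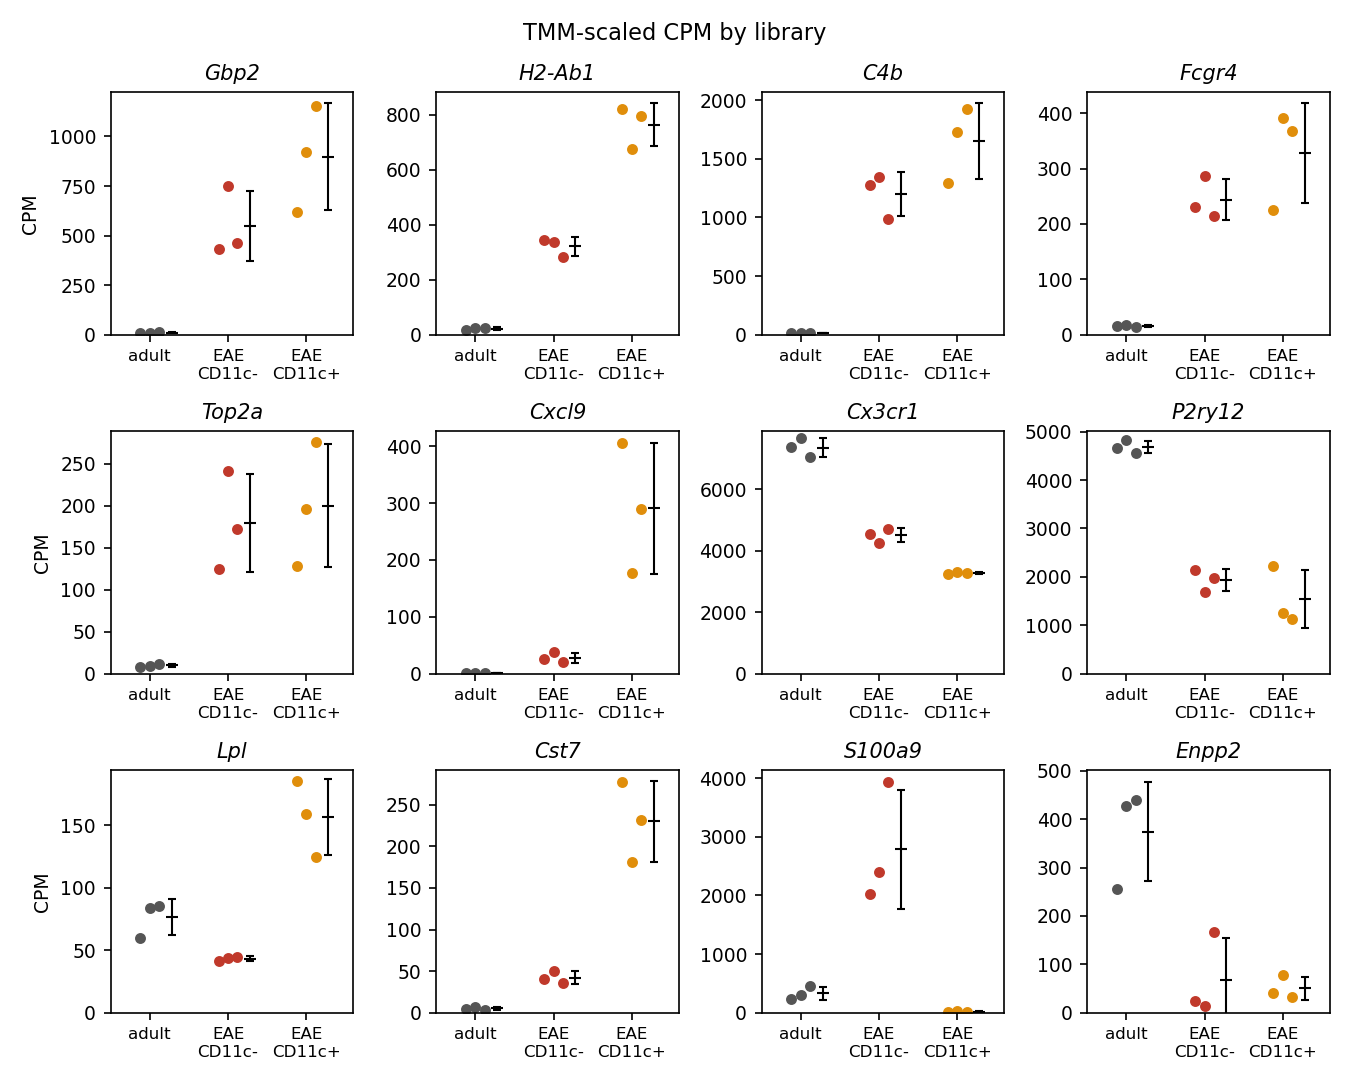
TMM-scaled CPM of 12 genes (vertical axes, each starting at 0) in the 3 libraries of adult, EAE CD11c- and EAE CD11c+ microglia; points are libraries in the order of their numbers and the cross bar with whiskers is the mean with its SD, cut at 0 for Enpp2. Gbp2, H2-Ab1, C4b, Fcgr4 and Top2a were near 0 in adult and high in both EAE subsets, S100a9 was highest in the EAE CD11c- libraries, and Lpl was lowest in EAE CD11c- microglia.

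Genes of cell division rose together. All 35 measured mitosis genes rose (median 3.78), and all 35 did so under every alternative fit of the list counts that was run, including those without single libraries. Top2a, the topoisomerase that untangles chromosomes, had 8.58, 9.57 and 11.5 CPM in the adult and 125, 241 and 173 CPM in the EAE CD11c- libraries (log2 fold change 4.19, SE 0.28, adjusted p = 6.2e-09). Kif2c, a kinesin that takes microtubules apart, rose from 1.57, 2.00 and 1.55 to 36, 47.1 and 39.1 CPM, Birc5, the mitotic regulator survivin, from 1.81, 0.841 and 1.16 to 18.9, 27.8 and 21.1 CPM, and Aurkb, a kinase of chromosome segregation, from 2.54, 2.00 and 1.94 to 20.3, 36.2 and 25.9 CPM. Library 5 was the highest EAE library for each of these genes. Of 32 DNA replication genes 27 rose and 0 fell (median 1.81). The epigenetic adaptor Uhrf1 rose from 2.9, 1.79 and 3.49 to 31.6, 53.8 and 51.9 CPM, the polymerase gene Pole from 2.42, 2.1 and 2.33 to 23.6, 37 and 30.1 CPM and the helicase subunit Mcm5 from 15.3, 13.7 and 12 to 55.9, 80.5 and 74.3 CPM. Pcna, the sliding clamp of DNA polymerase, was not among them (74.8, 62.1 and 57.3 CPM in the adult and 53.3, 67 and 60.7 CPM in the EAE CD11c- libraries, log2 fold change -0.10, adjusted p = 0.83). The fold changes of the replication genes were spread from -0.10 to 4.86, the latter for Mcm10, and those of the mitosis genes lay between 2.76 (Ect2) and 4.6 (Ube2c).

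Among 15 measured chemokine genes 9 rose and 0 fell (median 3.01). Ccl2 and Ccl12, ligands of the monocyte receptor Ccr2, rose from 25.9, 29.6 and 23 to 244, 346 and 214 CPM and from 38.9, 40.4 and 33.6 to 268, 373 and 328 CPM. The interferon-induced ligands of Cxcr3 rose as well, Cxcl10 from 5.07, 4.52 and 7.63 to 106, 156 and 68.9 CPM and Cxcl9 from 1.09, 0.841 and 0.776 to 25.8, 38.1 and 20.5 CPM. Ccl5 rose from 0.846, 0.631 and 1.42 to 8.85, 9.19 and 4.99 CPM. In contrast, the chemokines Ccl3 and Ccl4, which microglia make early on activation, did not pass, with log2 fold changes of -0.51 and -0.42 (adjusted p = 0.35 and 0.65). Of the chemokine and chemoattractant receptors 8 of 15 rose and 1 fell. The one that fell was Cx3cr1, the fractalkine receptor (7377, 7664 and 7034 CPM in the adult and 4561, 4250.3 and 4718 CPM in the EAE CD11c- libraries, log2 fold change -0.71, SE 0.11, adjusted p = 0.00014). Among those that rose, Cxcr2, Fpr1 and Fpr2 serve neutrophil recruitment, and the levels of Cxcr2 and Fpr1 are given with the neutrophil genes.

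The inflammatory cytokine and NF-kB list was split: 11 of 34 members rose, 2 fell and 21 did not pass (median 0.31), and 15 rose and 6 fell when the 6 libraries alone were fitted; 1 fell without EAE library 5 or adult library 21 or 22. Il1b rose from 4.71, 5.36 and 3.75 to 29.2, 35.2 and 35.7 CPM and its antagonist Il1rn from 1.33, 1.26 and 2.46 to 15.5, 20.2 and 24.7 CPM. The costimulator Cd40 had 0.362, 0.105 and 0.776 CPM in the adult and 6.83, 10.5 and 4.35 CPM in the EAE CD11c- libraries, and the interleukin subunit gene Il12b 0.121, 0.315 and 0.129 CPM in the adult and 1.49, 2.75 and 1.54 CPM in the EAE CD11c- libraries. The cytokine genes Tnf, Il1a and Il6 did not pass, with log2 fold changes of 0.56, 0.06 and -0.97. Tgfb1, the ligand that keeps microglia in their resting state, fell from 385, 367 and 390.1 to 256, 243 and 249 CPM, and the costimulator Cd80, with a log2 fold change of -0.79, fell as well.

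Homeostatic genes moved downward by smaller steps. Of 32 measured members 13 fell and 0 rose, with a median of -0.41, where 5.19% of all genes tested fell. For 23 of the 32 all EAE CD11c- libraries lay below all adult libraries, against 26.4% of all genes tested. The purine receptor P2ry12, which guides microglial processes, had 4656, 4819 and 4566 CPM in the adult and 2139, 1697 and 1971 CPM in the EAE CD11c- libraries (log2 fold change -1.27, SE 0.30, adjusted p = 0.0042). Gpr34, a lysophospholipid receptor, fell from 1731, 1753 and 1590 to 825, 585 and 710.0 CPM, Slc2a5, the fructose transporter, from 539, 508 and 454 to 289.9, 231 and 295 CPM and Upk1b, a tetraspanin of the uroplakin family, from 107, 95.9 and 85.3 to 41.3, 26.2 and 35.3 CPM. The largest loss in CPM among genes that fell was that of Cst3, which encodes the protease inhibitor cystatin C (12345, 11338 and 9707 CPM in the adult and 7266, 6094 and 7129 CPM in the EAE CD11c- libraries). Other members gave small values that did not pass, among them Tmem119 (-0.29), Sall1 (-0.44), Csf1r (-0.25) and Mertk (-0.30). The count of members that fell depends on the fit: it was 7 without EAE library 5 or without adult library 21, 8 without adult library 22, and 19 with the 6 libraries alone or without libraries 1 and 17. The count for the 13 genes named by the study was likewise 2 to 4 when single libraries were left out.

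In the TGF-beta pathway 6 of 25 measured members fell and 0 rose (median -0.32). The receptor gene Tgfbr1 had 2651, 2678 and 2922 CPM in the adult and 1483, 1295 and 1395 CPM in the EAE CD11c- libraries (log2 fold change -0.98, SE 0.14, adjusted p = 3.0e-05), and the signal transducer Smad3 fell from 245, 241 and 226 to 158, 137 and 154 CPM. Eng, a co-receptor, fell from 231, 253 and 216 to 155, 146 and 154 CPM and Ltbp3, which binds latent TGF-beta, from 11.7, 14.6 and 13.6 to 7.89, 4.45 and 7.43 CPM. Tgfbr2 and Smad4 did not pass (0.00 and -0.07, adjusted p = 0.98 and 0.65). Transcription factors of microglia and macrophages changed in both directions: 6 of 30 rose and 3 fell, against 11.8% and 5.19% of all genes tested. Without single libraries 4 to 5 rose and 1 to 3 fell, which lay near those shares. Maf fell from 484, 533 and 567 to 263, 201 and 251 CPM, whereas Bhlhe40 rose from 2.17, 2.84 and 3.88 to 14.2, 15.3 and 11.1 CPM and Runx1 from 143, 148 and 163 to 212, 269 and 254 CPM. With the 6 libraries alone 8 fell, and without adult library 23 or EAE library 5 it was 1.

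Genes linked to disease-associated microglia, the phagocytic state described around plaques and lesions, were mixed: 15 of 27 rose and 2 fell (median 1.12). Cst7, a cystatin that is a marker of that state, had 5.07, 6.62 and 3.75 CPM in the adult and 40.3, 50.5 and 35.3 CPM in the EAE CD11c- libraries (log2 fold change 3.02, SE 0.24, adjusted p = 5.7e-08). Spp1, which encodes osteopontin, rose from 13, 7.99 and 6.98 to 94.2, 74.8 and 60.4 CPM, Axl, a receptor for apoptotic cells, by 2.1 on the log2 scale (SE 0.25) and Apoe by 1.12 (SE 0.29). Lpl, the lipoprotein lipase, fell from 59.9, 84.2 and 85.6 to 41.2, 43.8 and 44.9 CPM (log2 fold change -0.82, SE 0.18, adjusted p = 0.0018), and Ank, a pyrophosphate transporter, from 53.8, 52.4 and 56.8 to 22.4, 23 and 25.2 CPM. Without adult library 22 or 23 only 1 member fell, and with the 6 libraries alone 4 did. Trem2 and Tyrobp, the receptor and adaptor for this state, had log2 fold changes of -0.23 and 0.27 (adjusted p = 0.36 and 0.11). Igf1 had 2.42, 4.21 and 1.68 CPM in the adult and 1.17, 0.568 and 0.512 CPM in the EAE CD11c- libraries and Gpnmb 1.09, 0.315 and 0.259 CPM in the adult and 2.45, 1.42 and 1.02 CPM in the EAE CD11c- libraries, and neither passed. The list was moved in part, with Cst7 and Spp1 up and Lpl down.

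Lipid uptake and lysosomal genes rose in part. Among 22 lipid handling genes 10 rose and 1 fell (median 0.37). The scavenger receptor Cd36 rose from 2.05, 3.47 and 2.97 to 86, 171 and 78 CPM (log2 fold change 5.29, SE 0.48, adjusted p = 2.1e-07) and Msr1 from 2.42, 5.26 and 3.36 to 25.6, 43.2 and 36.2 CPM, while the cholesterol exporter Abca1 had a log2 fold change of 0.04. Of 34 lysosomal genes 14 rose and 0 fell (median 0.36), and 9 rose without adult library 23. The proteases Ctss and Ctsb and the saposin precursor Psap were among the genes with the largest gain in CPM. Ctss rose from 5126, 5266 and 4556 to 9331, 9448 and 8118 CPM, Ctsb from 2847, 2820.3 and 2480.1 to 4816, 4469.7 and 3927 CPM and Psap from 4526, 4604 and 3992 to 7172, 7192 and 5996 CPM. These gains were small in fold, for example 1.8 for Ctss. Of 23 sterol synthesis genes 4 rose and 0 fell (median 0.36), with 3 to 4 that rose without single libraries and 6 with the 6 libraries alone. For glycolysis 5 of 26 rose and 1 fell, with 3 to 4 that rose without single libraries and 11 with the 6 libraries alone. Without single libraries both counts lay near the 11.8% of all genes tested that rose. Slc2a3, a member of the glycolysis list that rose, is 1 of the 144 genes set beside the neutrophil genes below. Pkm, pyruvate kinase, rose from 192, 185 and 173 to 341, 402 and 393 CPM.

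Ribosomal protein genes of the cytosol rose in 24 of 76 cases and fell in 0 (median 0.66), and subunits of the respiratory chain in 5 of 40 (median 0.33), a share near the 11.8% of all genes tested that rose. Both counts moved with the fit: 11 to 21 and 1 to 3 without single libraries, and 47 and 21 with the 6 libraries alone. Rplp0 rose from 129, 118 and 114 to 244, 247 and 220.2 CPM and Cox4i1 from 72.5, 69.4 and 60.5 to 122, 112 and 102 CPM. Ribosomal genes have many processed copies, and reads shared with them may move between rows. Of 21 ion channel and purine receptor genes 6 rose and 2 fell, but 2 rose without adult library 21 or 22 and 3 without adult library 23 or EAE library 5 or 6. The latter counts lay near the 11.8% of all genes tested that rose. In each fit without a single library 1 fell, where 5.19% of all genes tested fell. Nt5e, a member that rose, is 1 of the 144 genes set beside the neutrophil genes below. P2ry14, a receptor for UDP-sugars, had 0, 0.21 and 0.129 CPM in the adult and 5.23, 10.8 and 5.89 CPM in the EAE CD11c- libraries, and Trpm2, a calcium channel, rose from 212, 204 and 219 to 357, 343 and 309.6 CPM.

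Immediate early genes, which respond within minutes to handling and signals, were highest in adult microglia. In the joint fit only Hspa1b, Hspa1a and Klf4 fell, Fosl2 rose and 22 of 26 did not pass. Even so, 22 of the 26 lay lower in all EAE CD11c- than in all adult libraries, against 26.4% of all genes tested. With the 6 libraries alone 21 fell. Klf4 had 1483, 259.9 and 419 CPM in the adult and 95.8, 118 and 115 CPM in the EAE CD11c- libraries and Fosb 4954, 1376 and 1924 CPM in the adult and 365, 525 and 428 CPM in the EAE CD11c- libraries, with adult library 21 far above the other adult libraries. Jun had 9025, 5308 and 6486 CPM in the adult and 1915, 1747 and 1815 CPM in the EAE CD11c- libraries, a log2 fold change of -1.93 with an adjusted p of 0.02 in the joint fit and of 8.9e-06 in the fit of 6 libraries. Hspa1b, a gene of the chaperone HSP70, had 475, 371 and 555 CPM in the adult and 151, 116 and 225 CPM in the EAE CD11c- libraries, with reads possibly shared with Hspa1a. Without single libraries the joint fit gave 1 to 3 members that fell, with 1 without adult library 21 or 23 or EAE library 4 or 5. Outside this list, the small heat shock gene Hspb1 fell from 16.8, 7.88 and 10.7 to 1.39, 1.99 and 2.69 CPM and Grasp, a scaffold protein, from 16.4, 7.57 and 8.15 to 1.49, 2.08 and 1.15 CPM. Both were highest in adult library 21.

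Further genes called lower with a large fold were Sema4b, a semaphorin (65.5, 64.5 and 66.7 CPM in the adult and 13.5, 13.4 and 17.8 CPM in the EAE CD11c- libraries, log2 fold change -2.14, SE 0.19, adjusted p = 1.6e-07), and Adamts16, a secreted metalloprotease (72.1, 54.9 and 55.3 CPM in the adult and 19.4, 6.54 and 9.6 CPM in the EAE CD11c- libraries). St8sia6, a sialyltransferase, fell from 20.3, 29.8 and 31.5 to 7.57, 3.03 and 5.25 CPM and Ccdc162 from 22.5, 15.6 and 15.8 to 3.95, 2.46 and 2.56 CPM. Gm13889 and Gm3248 fell, with log2 fold changes of -2.2 and -2.19. The 3 remaining genes of the 12, Enpp2, Kl and Igf2, followed another pattern. Enpp2, which encodes autotaxin, had 256, 428 and 439 CPM in the adult and 25.1, 13.6 and 167 CPM in the EAE CD11c- libraries, Kl, which encodes klotho, 19.7, 33.3 and 34.1 CPM in the adult and 2.35, 1.33 and 12.8 CPM in the EAE CD11c- libraries and Igf2 13.5, 22.7 and 22.8 CPM in the adult and 1.28, 1.52 and 8.96 CPM in the EAE CD11c- libraries: libraries 4 and 5 were low, and library 6 lay between them and the adult libraries. Enpp2 and Kl are abundant in the choroid plexus epithelium. A list of 10 marker genes of that epithelium, added after these values were seen, summed to 601, 965 and 1053 CPM in the adult libraries, to 65.9, 33.9 and 434 CPM in EAE libraries 4, 5 and 6, and to 97.4, 216 and 76.3 CPM in EAE CD11c+ microglia. In the joint fit 5 of the 10 fell; without library 6 all 10 fell, without library 4, library 5 or adult library 23 none did, and without adult library 22 only 1. The part of such cells in the fall of these 3 genes was not tested.

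**Figure D4:**
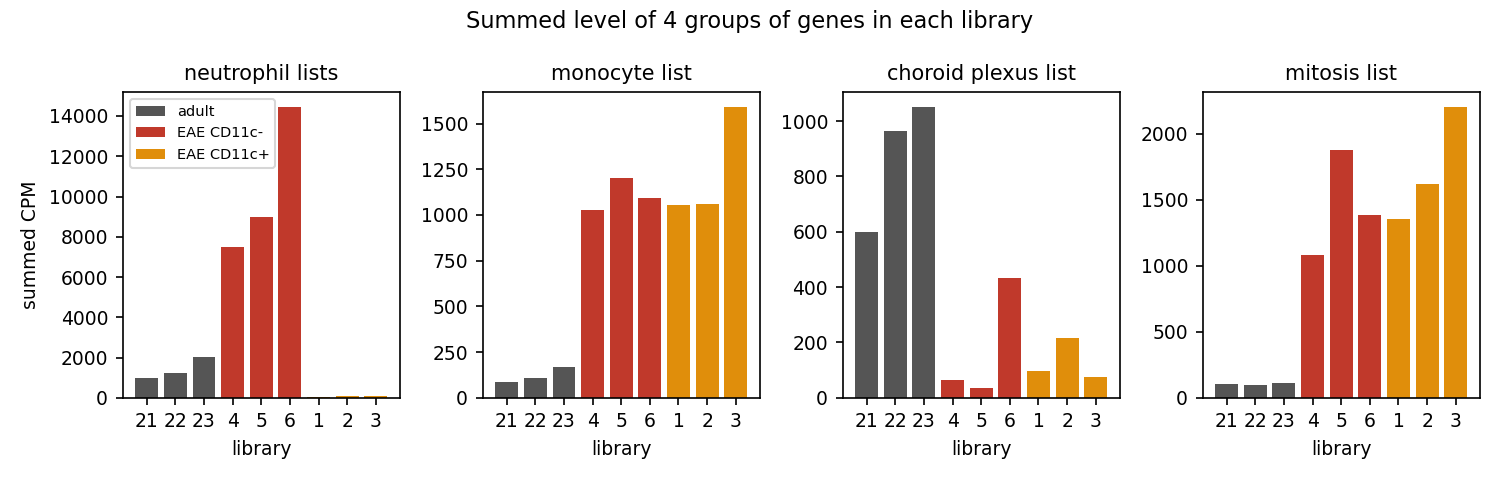
Bars give the summed CPM of the neutrophil lists, the monocyte list, the choroid plexus list and the mitosis list in each of the 9 libraries of adult (21 to 23), EAE CD11c- (4 to 6) and EAE CD11c+ (1 to 3) microglia. The neutrophil sum peaks in library 6 (14466 CPM) and is at most 109 CPM in EAE CD11c+ libraries, whereas the mitosis sum is high in all 6 EAE libraries.

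Genes of neutrophils were among those with the largest gain in CPM. The 3 neutrophil lists (granule genes of the primary and secondary stage, and late or cytosolic genes) summed to 979, 1236 and 2033 CPM in the adult libraries, to 7488, 9001 and 14466 CPM in EAE CD11c- libraries 4, 5 and 6, and to 58.2, 109 and 95.5 CPM in EAE CD11c+ libraries. In counted reads this was 0.0951% to 0.210% in adult and 0.754% to 1.48% in EAE CD11c- libraries. In bulk samples more cells of a type and more RNA per cell cannot be told apart. All 7 secondary granule genes and all 14 measured late genes rose (medians 2.80 and 3.22), as did 1 of 4 primary granule genes (median 2.36; 4 of 4 with the 6 libraries alone, and 0 without EAE library 4 or 6 or adult library 21 or 22). S100a9, a calcium-binding protein that fills the neutrophil cytosol, had 235, 301 and 451 CPM in the adult and 2017, 2403 and 3939.9 CPM in the EAE CD11c- libraries (log2 fold change 3.08, SE 0.59, adjusted p = 0.00071), and 7.8, 26 and 17 CPM in EAE CD11c+ microglia. Ltf, lactoferrin of the secondary granule, rose from 188, 246 and 398 to 1118, 1302 and 2257 CPM and Mmp8, a collagenase of the same granule, from 9.54, 14.3 and 39.3 to 174, 249 and 347 CPM. Retnlg rose from 7.61, 9.25 and 24.8 to 195, 279 and 422 CPM and Ly6g, the surface antigen used to mark neutrophils, from 2.42, 3.89 and 7.37 to 25.5, 34.4 and 52.6 CPM. Cxcr2, their chemokine receptor, rose from 1.21, 2.63 and 3.75 to 42.5, 55 and 99.4 CPM and the formyl peptide receptor Fpr1 from 0.242, 0.631 and 0.646 to 9.17, 13 and 21.6 CPM. Of the primary granule genes, the elastase gene Elane had 0.362, 1.58 and 2.2 CPM in the adult and 9.17, 6.16 and 8.83 CPM in the EAE CD11c- libraries. Mpo, the peroxidase, had 1.09, 2.42 and 3.88 CPM in the adult and 16.1, 7.2 and 12.7 CPM in the EAE CD11c- libraries.

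These genes shared an order of libraries. Library 6 was the highest EAE CD11c- library for 20 of the 22 neutrophil list genes called higher (90.9%, against 31.9% of all genes tested), and adult library 23 the highest adult library for 21 of them (95.5%, against 35.5%). The median log2 ratio of library 6 to the mean of libraries 4 and 5 was 0.80 over the neutrophil list genes tested. To see how many further genes followed the same course, the CD11c+ libraries of EAE, where neutrophil transcripts were nearly absent, were used. Of all genes tested, 339 (2.79%) were higher and 210 (1.73%) lower in EAE CD11c- than in EAE CD11c+ microglia at the same adjusted p. Among the 1013 genes called higher than in adult microglia, 166 were also higher than in EAE CD11c+ microglia, namely the 22 neutrophil genes and 144 others. Both comparisons contain the EAE CD11c- libraries. Of the 144, 141 were highest in library 6 (97.9%) and 122 in adult library 23 (84.7%), and their median log2 ratio of library 6 to libraries 4 and 5 was 0.75. The other 847 genes called higher had their highest EAE value in library 6 in 169 cases (20.0%), and those outside the lists had a median ratio of -0.11. In CPM, the 22 neutrophil genes made up 14.8% and the 166 genes together 20.6% of the summed gain of all genes called higher.

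**Figure D5:**
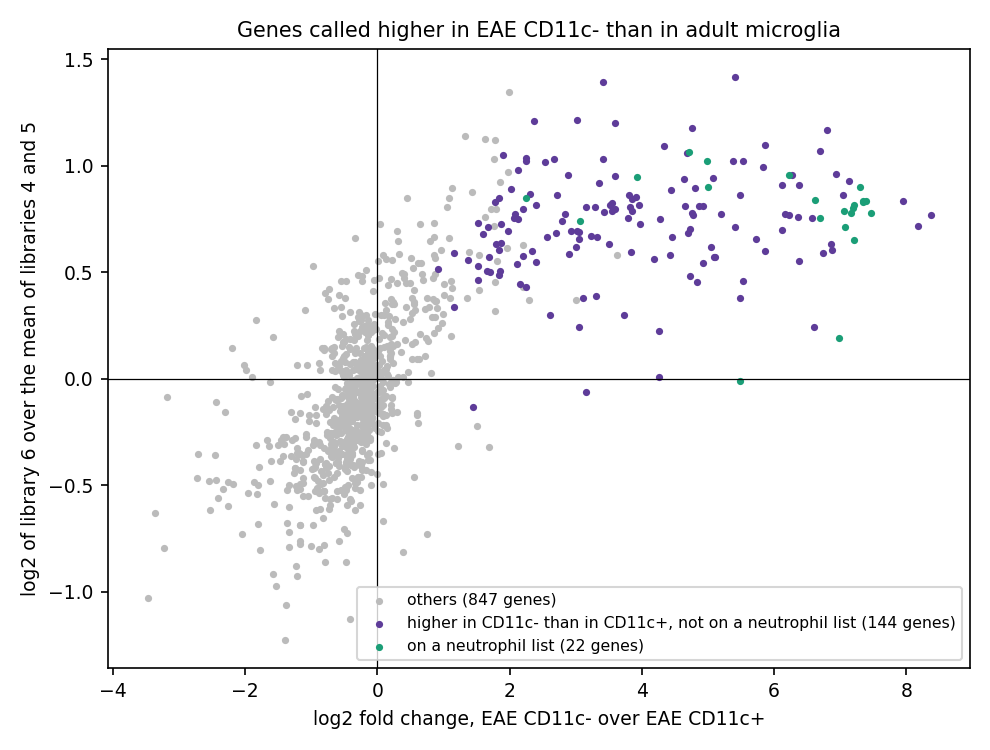
Each point is 1 of the 1013 genes called higher in EAE CD11c- than in adult microglia, placed by its log2 fold change against EAE CD11c+ microglia (horizontal axis) and by the log2 ratio of library 6 to the mean of libraries 4 and 5 (vertical axis). The 22 neutrophil list genes (green) and the 144 further genes higher in CD11c- than in CD11c+ microglia (purple) lie mostly at ratios above 0, with medians of 0.80 over all neutrophil genes tested and 0.75, while the 847 others (grey) centre slightly below 0.

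The 144 genes hold several known from granulocytes, picked here after their values were seen. Padi4, the enzyme that citrullinates histones, had 2.17, 7.25 and 9.57 CPM in the adult and 38, 43.9 and 74.9 CPM in the EAE CD11c- libraries, and 0.173, 0.503 and 0.417 CPM in EAE CD11c+ microglia. Anxa1, an annexin, rose from 30.0, 36.1 and 59 to 195, 242 and 373 CPM, Hdc, which makes histamine, from 4.71, 4.63 and 8.92 to 42.8, 45.7 and 101 CPM, and Slfn4 from 7.13, 10.5 and 20.3 to 86.4, 125 and 244 CPM. Each was highest in library 6 among the EAE and in library 23 among the adult libraries. Asprv1, a protease, had 0.242, 0.21 and 0.517 CPM in the adult and 14.2, 19 and 19.5 CPM in the EAE CD11c- libraries and the lectin gene Clec4d had 0.362, 0.105 and 0.259 CPM in the adult and 9.17, 9.95 and 20.4 CPM in the EAE CD11c- libraries, which places 2 of the 12 steepest increases in this set. They stood at 0.173, 0.88 and 1.53 and 1.73, 5.66 and 2.78 CPM in EAE CD11c+ microglia. The chemoattractant receptor genes Fpr1, Fpr2 and Ltb4r1 were among the 144 as well. Of the interferon-γ, type I interferon, MHC class I, MHC class II, complement, mitosis and DNA replication lists, 0 members were higher in EAE CD11c- than in EAE CD11c+ microglia. The share over all genes tested was itself small, at 2.79%.

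With the neutrophil genes left out of the library size and the tests, 992 genes were called higher and 286 lower, and all other 991 genes called higher stayed called. This step does not take neutrophil RNA out of the counts of other genes, so it cannot say how much of their rise came from it. The 144 genes above are among those that stayed called. Without library 6 the counts were 959 and 263, and 928 of the 1013 genes remained. A further fit carried the log2 of the summed neutrophil CPM as a covariate. Since the sum did not overlap between adult and EAE CD11c- libraries, the covariate and the group cannot be told apart in this fit. In this fit 343 genes were called higher and 33 lower, of which 329 and 23 were among the calls above, and 946 of the 1013 kept their direction. In it 35 mitosis genes rose, against 35 without the covariate. The counts were 21 against 34 for type I interferon genes, 15 against 22 for interferon-γ genes, 6 against 8 for MHC class II, 11 against 27 for DNA replication, 6 against 20 for MHC class I, 3 against 13 for complement and 2 against 9 for chemokines. In the homeostatic and TGF-beta lists 0 members fell there, and 1 of 14 late neutrophil genes rose.

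Markers of monocytes rose as well. Of 10 measured genes 9 rose and 0 fell (median 3.06), and 5 to 8 rose without single libraries, the lowest without adult library 22. The list summed to 86.5 to 167 CPM in adult, 1029 to 1203 CPM in EAE CD11c- and 1052 to 1593 CPM in EAE CD11c+ libraries. Of this, Chil3 had 56.5, 69.8 and 119 CPM in the adult and 382, 452 and 619 CPM in the EAE CD11c- libraries. In EAE CD11c+ microglia it had 3.98, 16 and 22 CPM. Chil3 belongs to the 144 genes above and was highest in libraries 6 and 23 of their groups. Fn1 made up a large part of the sum in both EAE subsets. Ccr2, the receptor that defines blood monocytes, rose from 7.37, 7.99 and 11.6 to 20.6, 22.5 and 19.5 CPM, and had 12.6, 38.6 and 32.8 CPM in EAE CD11c+ microglia. Ly6c2 rose from 3.14, 3.36 and 7.24 to 24.4, 30.4 and 50.3 CPM, was highest in library 6 and belongs to the 144 genes above. Vcan, which encodes versican, rose from 0.846, 0.631 and 0.905 to 10.2, 12.9 and 10.5 CPM without this order. F13a1 did not pass (1.3, adjusted p = 0.038). The part of monocytes in these values was not tested.

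Transcripts of other cell types were uneven within their lists. The T cell genes Cd3d, Cd3e and Cd3g had at most 4 reads in any of the 6 libraries, Ncr1 of NK cells and Pax5 of B cells had 0 in all of them, and no marker of neurons passed the filter. Summed levels were 46.4 to 57.6 CPM in adult and 42.3 to 46.6 CPM in EAE CD11c- libraries for the T cell list, and 1538 to 1556 against 733 to 942 CPM for the border macrophage list, where 1 of 7 measured genes fell and 0 rose. That gene was Stab1, a scavenger receptor, which made up most of the sum in both groups (1494, 1451 and 1481 CPM in the adult and 811, 678 and 893 CPM in the EAE CD11c- libraries). It did not pass without EAE library 5. Mrc1, the mannose receptor of such cells, had 35.2, 71.9 and 52.4 CPM in the adult and 36.3, 37.7 and 37.3 CPM in the EAE CD11c- libraries (adjusted p = 0.14). The B cell list summed to 381 to 482 CPM in adult and 317 to 355 CPM in EAE CD11c- libraries, most of it Ighm, while Ms4a1 had at most 1 read. The oligodendrocyte list summed to 154 to 165 and 155 to 170 CPM and the astrocyte list to 119.8 to 130.1 and 161 to 169 CPM, the latter mostly Slc1a3. None of the measured dendritic cell (3), T cell (3), NK cell (1), B cell (2), erythroid (1) and oligodendrocyte (5) genes passed the test in the joint fit. In the astrocyte list Gfap rose from a level under the floor (0.242, 0.21 and 0 CPM in the adult and 1.17, 1.61 and 2.56 CPM in the EAE CD11c- libraries), and in the endothelial list Pecam1, an adhesion molecule that myeloid cells also carry, fell from 57.1, 47 and 46.9 to 21.1, 15.7 and 21.6 CPM.

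Set beside the CD11c+ subset of the same disease, the changes of EAE CD11c- microglia were smaller for a part of the genes. Of the disease-associated list 17 of 27 members were lower in EAE CD11c- than in EAE CD11c+ microglia and 0 higher, and of the MHC class II list 5 of 14 were lower. Cst7 stood at 42.1 ± 7.72 CPM (SD, n = 3) in CD11c- and 229.9 ± 48.2 CPM in CD11c+ microglia (log2 difference -2.45, adjusted p = 1.1e-06), against 5.15 ± 1.44 CPM in adult microglia. Cxcl9 had 28.1 ± 9.02 and 291 ± 115 CPM (log2 difference -3.36, adjusted p = 7.6e-07), and Ccl5 7.68 ± 2.33 and 72.5 ± 32.5 CPM (log2 difference -3.23, adjusted p = 7.4e-06). Cd74 stood at 1066 ± 129 in CD11c- and 3025 ± 640.1 CPM in CD11c+ microglia (log2 difference -1.50, adjusted p = 0.00033). Lpl lay below the adult level in CD11c- (43.3 ± 1.93 CPM) and above it in CD11c+ microglia (156 ± 30.5 CPM, log2 difference -1.85, adjusted p = 3.4e-06). By contrast, 0 of 35 mitosis genes and 0 of 32 DNA replication genes differed between the subsets at an adjusted p of 0.01, with Top2a at 179.8 ± 58.4 and 200.2 ± 73.6 CPM (log2 difference -0.16, adjusted p = 0.78). A p that misses the threshold does not show equal levels. In the homeostatic list, CD11c- microglia had the higher level for 4 of 32 members and the lower level for 0, among them Slc2a5 (272 ± 35.4 and 141 ± 30.6 CPM, log2 difference 0.94, adjusted p = 0.00039) and Fcrls (1531 ± 248 and 788 ± 214 CPM, log2 difference 0.96, adjusted p = 0.0028). CD11c+ library 1 stands apart from libraries 2 and 3, with a median correlation of 0.96 to them on log2 CPM and a larger share of mitochondrial reads (2.23% against 1.42% and 1.15%). Without it and neonatal library 17, 166 list members in place of 59 were lower in CD11c- than in CD11c+ microglia.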

How the data were processed

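Per the methods of the study and the submitters' notes, single reads were aligned to GRCm38 with STAR (2.3.11 in the notes) and the authors counted reads per gene with HTSeq 0.5.4; the deposited values are raw counts per Ensembl gene ID, without normalization, and the authors compared groups with edgeR 3.12.0. The strand setting is not given in the sources used here. For this report IDs were joined to symbols from a gene name table and to positions of GENCODE M21 (40254 of 41388 IDs had a symbol). Genes with at least 1 CPM in at least 3 of the 6 libraries were kept (12140). All 5 groups entered 1 model in edgeR 4.0.16 (R 4.3.3, TMM scaling, quasi-likelihood test, Benjamini-Hochberg adjustment), tested beforehand on simulated data; the standard error is the log2 fold change over the square root of F. Members and gene lists were chosen with earlier results of these data known. Of 819 list entries 816 matched an ID.

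Named genes follow a rule: per direction the 12 genes called with the largest fold whose libraries do not overlap, with at least 10 CPM in the higher group and outside the neutrophil lists; the 6 with the largest difference of CPM; up to 4 members of each list by adjusted p; the microglial genes named by the study; and Itgax. A few genes that the rule names are not reported here. Further list members appear as examples chosen after their values were seen. Library ratios use a pseudocount of 0.5 CPM. Counts were 7500815 to 10436066 per library, which sets the floor of 3 counts; floors cover counting error only. Alternatives were other scalings, tests (DESeq2 1.42.0, limma 3.58.1), filters, thresholds and left-out libraries. Pairs of libraries within each group differed by more than sampling noise. Neonatal libraries entered the joint model but were not compared here.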

Additional observations from a re-analysis of the deposited data

Results flagged for a closer look

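In 16 members of the gene lists, the change from adult microglia went in opposite directions in the 2 EAE subsets, each past the test, and the difference between the subsets was itself tested. Lpl fell in EAE CD11c- and rose in EAE CD11c+ microglia, with a difference of CD11c- minus CD11c+ of -1.85 on the log2 scale. The other 15 rose in EAE CD11c- and fell in EAE CD11c+ microglia. The differences were 7.46 for Camp, 7.39 for Retnlg, 7.35 for Lcn2, 7.34 for S100a9, 7.30 for Ltf, 7.21 for Ngp and 7.21 for S100a8. They were 7.17 for Cd177, 7.07 for Mmp8, 6.69 for Pglyrp1, 6.62 for Itgb2l, 6.23 for Mmp9 and 5.09 for Chil3. For Ly6g and Wfdc21 the mean in EAE CD11c+ microglia lay under the floor, at 0.239 and 0.311 CPM, against 37.5 and 46.4 CPM in EAE CD11c- and 4.56 and 5.84 CPM in adult microglia. Of these genes 14 are on the neutrophil lists and Chil3 is on the monocyte list. Across all genes called, 35 showed opposite directions, and all 35 were higher in EAE CD11c- microglia. Both changes are taken against the same adult libraries.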

How the results depend on the processing

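No paired analysis was run. The numbers in the titles run on from group to group, so they tie no libraries of different groups together. Whether CD11c- and CD11c+ microglia of EAE came from the same pools is not given by the labels, and the subsets were compared as unpaired. The 1013 genes called higher and 284 called lower became 343 and 33 with neutrophil RNA as a covariate, and 628 and 70 at a log2 fold change of at least 2. With limma voom 1101 genes were higher and 433 lower. Under the remaining alternatives with all libraries of both groups, 795 to 1096 genes were higher and 191 to 423 lower. Of the gene lists, 304 members rose and 35 fell; with the covariate 118 rose and 2 fell, with the 6 libraries alone 79 fell, and without libraries 1 and 17 (chosen after seeing the data) 57 fell. Between the EAE subsets, 44 list members were higher and 59 lower in CD11c- microglia, with 19 higher once neutrophil genes were left out, by construction, and 166 lower without libraries 1 and 17. Leaving out each library in turn gave 883 to 1001 genes higher and 140 to 263 lower (the lowest without EAE library 5), 258 to 279 list members that rose and 17 to 36 that fell, and between the subsets 32 to 41 higher and 35 to 78 lower (the lowest without EAE library 6). Elsewhere the cause was not tested.

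With the covariate 17 of 171 named genes changed sign, none of them past the test: S100a9 (-0.053), Elane (-0.063), Ms4a3 (-0.12), Prtn3 (-0.63), Chil1 (-0.004), Lcn2 (-0.42), Fpr2 (-0.052), Nt5e (-0.68), Itgae (0.14), Il7r (0.25), Cd5 (0.57), Cd4 (-0.67), Cd79b (0.005), Hbb-bs (-1.39), Mag (0.046), Cnp (-0.33) and Spi1 (0.03), as log2 fold changes. Cd79b also changed sign without adult library 22, with a range of -0.19 to 0.031 over the left-out libraries. A further 80 named genes no longer passed with the covariate. Klf4 no longer passed with DESeq2 size factors (adjusted p = 0.01 after rounding) and Enpp2 with the 6 libraries alone (0.014). Depth limits genes with a mean near the floor of 3 counts, for which levels are given in place of folds.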
